A study of Homo sapiens with 12 samples.

Results

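NRF2 (gene NFE2L2) is a transcription factor that switches on genes for handling oxidants and electrophiles, and 39 genes of this programme, its regulators included, were followed in 2 lung adenocarcinoma cell lines. The rule for membership is a list of gene names, chosen with earlier results of these data known. Of the 39, 37 had a probe set annotated to that gene alone and all 37 passed the filter on low signals, among 13882 genes tested. The other members, AKR1B1 and FTH1, were not analysed here. At rest KEAP1 holds NRF2 for degradation. Oxidants modify KEAP1, and NRF2 then pairs with small MAF proteins such as MAFG on the antioxidant response element (ARE) in the promoters of its targets. In lung cancer the pathway is known for being switched on by mutation and for protecting tumour cells from oxidants and drugs.

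RNA was measured on 12 Affymetrix arrays in 4 groups of 3, named biological replicates in the labels: CL1-0 without a field, CL1-0 under a field, CL1-5 without a field and CL1-5 under a field. CL1-0 and CL1-5 are human non-small cell lung cancer lines of common origin, CL1-5 being a more invasive subline. All groups shared culture overnight in a microfluidic chip, followed by serum-free medium for 2 h. The direct-current electric field (EF) set there was 0 or 300 mV/mm, and all cells were then lifted with trypsin. The comparisons ask how the lines differ and how each responds to the field. The labels do not say whether replicates came from separate cultures, so p-values measure the spread between these arrays, which may be technical. In bulk RNA of this kind, fewer cells expressing a gene and less RNA per cell cannot be told apart.

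Core ARE letters in the members' promoters are shown first because the ARE is the element through which NRF2 acts. RefSeq promoter windows on build GRCh38.p14, running from 250 bases before to 50 bases after a start site, matched 30 members with 40 windows, and 9 members had none. The core searched was TGACNNNGC on both strands, which overlaps the AP-1 motif TGANTCA in some sequences. It occurred in 12 of the 40 windows (30%) and in 4687 of 35116 windows of all genes (13.3%). The AP-1 motif occurred in 4 of the 40 windows (10%), against 7.71% of all windows. Below, 29 bases around a match are printed in the direction of transcription with the core, or its reverse complement, in capitals.
PIR (chrX:15493289-15493317, minus strand): gccgcgaagcGCTGAGTCAcggtgaggct
ME1 (chr6:83431170-83431198, minus strand): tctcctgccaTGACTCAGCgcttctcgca
GCLM (chr1:93909446-93909474, minus strand): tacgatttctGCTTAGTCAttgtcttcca
KEAP1 (chr19:10502784-10502812, minus strand): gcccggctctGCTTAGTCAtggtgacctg
PGD (chr1:10398853-10398881, plus strand): cctcgccgggGCAATGTCAtctaggtgct
EPHX1 (chr1:225825266-225825294, plus strand): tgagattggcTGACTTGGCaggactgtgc
CYP4F11 (chr19:15935005-15935033, minus strand): ctgtgcccatGCTGTGTCAccctgagctg
MGST1 (chr12:16347135-16347163, plus strand): ggggacatcgTGACAAAGCaaattgtctg
GPX2 (chr14:64942849-64942877, minus strand): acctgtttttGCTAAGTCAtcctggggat

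PIR and ME1 shared 1 core, TGACTCAGC, and in both it overlapped the AP-1 motif. GCLM and KEAP1 shared another, TGACTAAGC, without such an overlap. TXNRD1 and CBR1 held a match as well, which made 11 genes. A match is a description of letters in a window, not of a bound site, and a window without one says nothing about NRF2 at that gene.

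Values below are log2 of the deposited signals, differences are CL1-5 minus CL1-0, and the test is limma with Benjamini-Hochberg adjustment over all 13882 genes at an adjusted p of 0.05. Levels of different genes come from different probes and are not compared. Array medians were 60.7 to 72.4 (5.92 to 6.18 on the log2 scale), and a level under them is treated as low. Replicate 1 stood apart in every group: on these 4 arrays the mean signal of the poly-A spike-in control dap was 5.92 to 21.2, against 789 to 1063 on the other 8 arrays. Each group holds 1 such array. Arrays of the same number deviated together, mainly replicate 1 against the others. Values with the replicate number as a block are therefore given where they change a call. Of 9 epithelial and lung markers on the array, 5 were above the array median on all 12 arrays: KRT7, KRT8, KRT18, NKX2-1 and SFTPB. EPCAM, an epithelial surface protein, was at 9.21 ± 1.35 (SD, n = 6) in CL1-0 and at 5.02 ± 0.71 (SD, n = 6) in CL1-5, where all arrays were below the median. KRT19 was low in both lines (3.38 ± 2.68 and 2.37 ± 0.77, SD, n = 6). Of 4 leukocyte markers PTPRC, CD14 and LYZ were below the median on all 12 arrays, and CD3E was above it on 3 arrays of each line. Of 7 fibroblast markers COL1A1 was above on all 12 arrays, and PDGFRA was at 3.42 ± 1.12 (SD, n = 6) in CL1-0 and 7.19 ± 0.41 in CL1-5. COL3A1 and DCN went the other way, at 6.55 ± 1.37 and 4.23 ± 1.3, and 6.32 ± 0.5 and 5.46 ± 1.06. COL1A2, LUM and PDGFRB were below the median on most arrays of both lines. Of 4 endothelial markers PECAM1 was above on all 12 arrays (6.82 ± 0.52 and 8.82 ± 1.26, SD, n = 6), CLDN5 was at 4.33 ± 0.62 and 9.04 ± 0.94, and CDH5 and VWF were below on all 12. The part of these markers in the results was not tested.

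Over both field settings, 26 of the 37 members were lower in CL1-5 and 1, MGST1, was higher. Among all genes tested 17% were called lower and 15.3% higher. The members were chosen with earlier results of these data known, so the counts describe the list and do not test it. The median difference of the members was −1.05, against −0.06 over all genes, and 32 members were below 0, against 53.8% of all genes. With CL1-5 values under the array median raised to it, the drop was more than 4-fold in 9 genes, between 2-fold and 4-fold in 11 and smaller in 6. For 22 members (59.5%) all 6 arrays of CL1-5 were below all 6 of CL1-0, as was the case for 11.6% of all genes. CYP4F11, counted among the 26 and the 22, passed the filter on low signals only through CL1-0. MGST1 was the only member wholly above, against 10.8% of all genes. The 26 genes covered every role in the list. They were 3 of 4 in glutathione supply, 3 of 4 in the thioredoxin system and 3 of 4 in NADPH supply and the pentose phosphate pathway. In quinone and carbonyl reduction they were 5 of 6 measured, and in conjugation and hydrolysis 4 of 5. Of the 11 genes with an ARE core in a promoter window 6 were lower, with a median of −0.63, and of the 18 measured genes with a window and no core 14 were, with a median of −1.12.

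**Figure D1:**
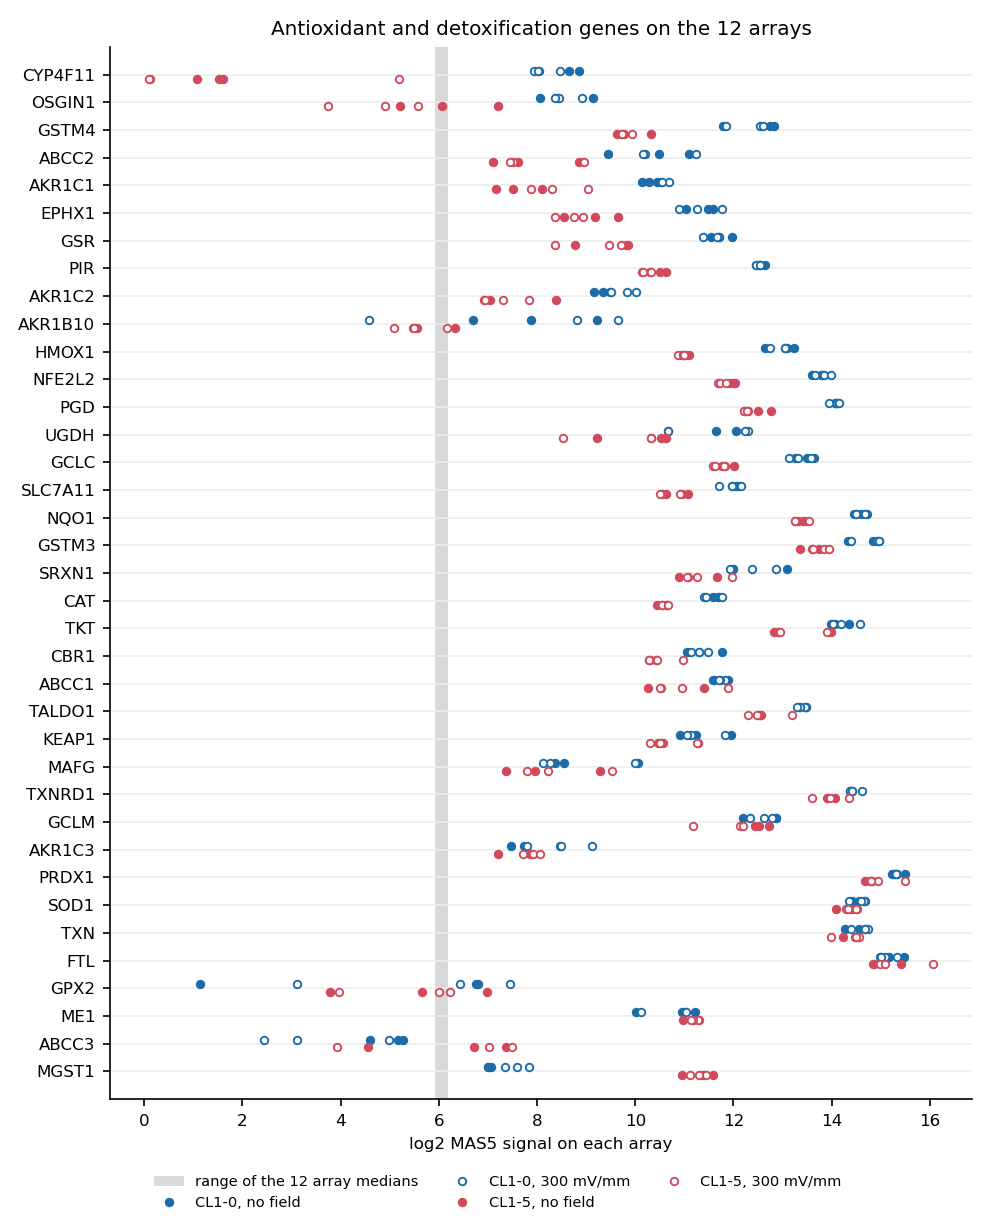
Log2 signal (x axis) of each of the 37 measured members (rows, ordered by the difference between the lines) on all 12 arrays, CL1-0 in blue and CL1-5 in red, filled without the field and open under it, with the range of the array medians in grey. In 22 members the CL1-5 points all sit below the CL1-0 points, and in MGST1 they all sit above.

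Among the regulators, the gene for NRF2 itself was lower in CL1-5. NFE2L2 had log2 signals of 13.59, 13.81 and 13.79 without the field and 13.84, 13.66 and 13.99 under it in CL1-0, and of 11.92, 12.04 and 12.02, and 11.68, 11.73 and 11.84, in CL1-5. Every CL1-5 array was below every CL1-0 array, by −1.91 ± 0.11 (SE), or 3.76-fold (limma adjusted p = 1.08e-07). A further NFE2L2 probe set differed by −2.74. KEAP1, the adaptor that presents NRF2 for degradation, was at 11.35 ± 0.42 (SD, n = 6) in CL1-0 and 10.72 ± 0.43 in CL1-5, and its difference of −0.63 ± 0.25 (SE) did not pass (limma adjusted p = 0.0752). With the replicate block it did, with an SE of 0.09 (limma adjusted p = 9.34e-05). In both lines KEAP1 was highest on the replicate 1 arrays (11.94, 11.82, 11.27 and 11.26), and without CL1-5 replicate 1 it passed as well, at 0.0373 leaving out the array without the field and 0.028 leaving out the array under it. MAFG, the small MAF partner, was at 8.89 ± 0.89 (SD, n = 6) and 8.36 ± 0.86, likewise highest on replicate 1 (9.28 to 10.05). Its difference of −0.53 ± 0.48 (SE) had a limma adjusted p of 0.441, and of 0.00636 with the replicate block.

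Glutathione is made from cysteine, which the cell imports as cystine, and 3 of the 4 genes of its supply were lower in CL1-5. GCLC, the catalytic subunit of the rate-limiting enzyme of glutathione synthesis, was at 13.65, 13.50 and 13.25 without the field and 13.58, 13.13 and 13.31 under it in CL1-0. In CL1-5 GCLC was at 12.01, 11.76 and 11.82, and at 11.58, 11.81 and 11.63. The lines did not overlap, and the difference was −1.63 ± 0.12 (SE; limma adjusted p = 1.23e-06). SLC7A11, the cystine importer, ranged from 11.70 to 12.15 (median 12.01) in CL1-0 and from 10.50 to 11.08 (median 10.77) in CL1-5, a difference of −1.22 ± 0.14 (SE; limma adjusted p = 4.03e-05). GSR, which returns oxidised glutathione to its reduced form, ranged from 11.37 to 11.98 (median 11.68) in CL1-0 and from 8.36 to 9.86 (median 9.59) in CL1-5. At −2.33 ± 0.26 (SE) GSR had the widest gap of the 4 (limma adjusted p = 2.82e-05), and its lowest arrays were replicate 1 of CL1-5. GCLM, the modifier subunit that partners GCLC, overlapped between the lines. It was at 12.87, 12.86 and 12.20, and 12.79, 12.63 and 12.33 under the field, in CL1-0, and at 12.44, 12.51 and 12.73, and 11.17, 12.14 and 12.20 under the field, in CL1-5. The GCLM difference was −0.42 ± 0.20 (SE; limma adjusted p = 0.14).

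The thioredoxin and peroxiredoxin genes, which reduce protein disulfides and peroxides, had smaller differences, with a median of −0.43. SRXN1, the sulfiredoxin that repairs over-oxidised peroxiredoxins, was at 13.09, 11.99 and 11.99, and 12.86, 12.38 and 11.93 under the field, in CL1-0. In CL1-5 SRXN1 was at 11.66, 11.07 and 10.89, and 11.97, 11.26 and 11.06. Replicate 1 was high in both lines. The ranges overlap only through replicate 1 of CL1-5 under the field (11.97), above replicate 3 of CL1-0 under it (11.93). The SRXN1 difference was −1.05 ± 0.26 (SE; limma adjusted p = 0.0077). TXNRD1, the reductase of thioredoxin, ranged from 14.38 to 14.62 in CL1-0 and from 13.59 to 14.36 in CL1-5 (−0.47 ± 0.13, SE; limma adjusted p = 0.0133). The mean of all TXNRD1 probe sets did not pass (limma adjusted p = 0.342). The other probe set in that mean was low, at 3.34 in CL1-0 and 3.05 in CL1-5, and above the array median on 0 arrays. PRDX1, a peroxiredoxin, was at 15.22 to 15.49 in CL1-0 and at 14.67 to 14.94 on 5 arrays of CL1-5, with 15.49 on replicate 1 under the field. Its difference of −0.40 ± 0.12 (SE) passed narrowly (limma adjusted p = 0.0217). Without replicate 1 of CL1-0 without the field, or replicate 2 or replicate 3 of CL1-5 under the field, the PRDX1 adjusted p was 0.0519, 0.0524 and 0.0509. TXN, thioredoxin itself, was at 14.55 ± 0.18 (SD, n = 6) and 14.38 ± 0.22 (−0.17 ± 0.13, SE; limma adjusted p = 0.345).

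Of the 3 enzymes that remove peroxide or superoxide, CAT alone passed. CAT, catalase, ranged from 11.40 to 11.77 (median 11.63) in CL1-0 and from 10.45 to 10.67 (median 10.59) in CL1-5, without overlap. The CAT difference was −1.02 ± 0.12 (SE; limma adjusted p = 4.67e-05), and a further probe set differed by −1.05. The mean of all CAT probe sets, of which the third was above the array median on 1 array, differed by −0.42 and did not pass (limma adjusted p = 0.33). SOD1, the cytosolic superoxide dismutase, was at 14.54 ± 0.13 (SD, n = 6) and 14.36 ± 0.16 (−0.18 ± 0.11, SE; limma adjusted p = 0.233). GPX2, a glutathione peroxidase, was below the array median on 2 arrays of CL1-0 and 3 of CL1-5. It was at 1.14 and 3.12 on replicate 1 of CL1-0 and between 6.42 and 7.45 on the other CL1-0 arrays, against 3.79 to 6.98 in CL1-5. Its difference of 0.16 ± 1.10 (SE; limma adjusted p = 0.935) became −1.43 when only the 8 arrays with spike-in signal were used (limma adjusted p = 0.0264).

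NADPH is the reducing power these enzymes use, and 3 of 4 genes of its supply and the pentose phosphate pathway were lower. PGD, of the oxidative pentose phosphate pathway, was at 14.09, 14.08 and 14.07 without the field and 13.95, 14.10 and 14.15 under it in CL1-0. In CL1-5 PGD was at 12.77, 12.50 and 12.30, and 12.22, 12.22 and 12.27 under the field. This gap of −1.69 ± 0.11 (SE; limma adjusted p = 2.76e-07) was many times the spread of either line, although the mean of all PGD probe sets, of which 2 lie around or under the array median, was −0.45 and did not pass (limma adjusted p = 0.34). TKT and TALDO1 are the transketolase and transaldolase of the non-oxidative branch, which makes no NADPH itself. They differed by −0.96 ± 0.23 and −0.80 ± 0.15 (SE; limma adjusted p = 0.00751 and 0.00127). TKT in CL1-5 was at 13.99 and 13.90 on replicate 1 and at 12.82 to 12.95 on the other arrays. ME1, malic enzyme, was at 10.72 ± 0.52 (SD, n = 6) in CL1-0 and 11.17 ± 0.11 in CL1-5, the 2 lowest values being replicate 1 of CL1-0 (10.01 and 10.12). Its difference of 0.44 ± 0.23 (SE) had a limma adjusted p of 0.161, and of 0.0497 with the replicate block.

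Of 6 measured reductases of quinones and carbonyls, 5 were lower. NQO1, the quinone reductase often used as a readout of NRF2, was at 14.72, 14.59 and 14.45 without the field and 14.68, 14.49 and 14.49 under it in CL1-0. In CL1-5 NQO1 was at 13.41, 13.46 and 13.31, and 13.26, 13.53 and 13.25. The lines were far apart relative to their spread, at −1.20 ± 0.10 (SE) or 2.29-fold (limma adjusted p = 2.65e-06), and 2 further NQO1 probe sets differed by −1.77 and −1.59. AKR1C1, an aldo-keto reductase of steroids and lipid aldehydes, was at 10.44, 10.14 and 10.27, and 10.52, 10.68 and 10.54 under the field, in CL1-0. In CL1-5 AKR1C1 was at 8.11, 7.17 and 7.51, and 9.03, 7.88 and 8.31, which gave −2.43 ± 0.22 (SE; limma adjusted p = 5.46e-06). Its close relative AKR1C2 ranged from 9.15 to 10.02 (median 9.49) in CL1-0 and from 6.91 to 8.39 (median 7.18) in CL1-5 (−2.15 ± 0.27, SE; limma adjusted p = 7.17e-05). AKR1C1 and AKR1C2 are near-identical copies, and their probe sets may share signal. AKR1C3, of the same cluster, was at 8.18 ± 0.62 (SD, n = 6) and 7.77 ± 0.30 (−0.41 ± 0.26, SE; limma adjusted p = 0.275). CBR1, a carbonyl reductase, ranged from 11.06 to 11.76 in CL1-0 and from 10.27 to 10.98 in CL1-5 (−0.89 ± 0.17, SE; limma adjusted p = 0.00159). AKR1B10, a retinal and aldehyde reductase, varied widely in CL1-0, from 4.57 and 6.69 on replicate 1 to between 7.88 and 9.64 on the others. In CL1-5 it was at 5.08 to 6.33, below the array median on 4 arrays, and with these 4 raised to it the drop was at least 3.2-fold. AKR1B10 was at the threshold (−2.12 ± 0.76, SE; limma adjusted p = 0.0498). Its adjusted p was 0.0633 to 0.119 without any 1 of 10 arrays, all but replicate 1 of the CL1-0 groups, while without replicate 1 of CL1-0 under the field the difference was −2.89.

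Conjugation and hydrolysis held some of the members with wide drops and the 1 called member that went the other way. MGST1, a membrane-bound glutathione transferase, was at 7.0, 7.0 and 7.06 without the field and 7.35, 7.83 and 7.59 under it in CL1-0, and at 11.59, 11.38 and 10.96, and 11.45, 11.12 and 11.30, in CL1-5. MGST1 was 15.9-fold higher in CL1-5 (3.99 ± 0.16, SE; limma adjusted p = 1.13e-08), with 3.97 and 4.81 in 2 further probe sets. GSTM4, a cytosolic glutathione transferase, was at 11.79, 12.82 and 12.75, and 11.84, 12.55 and 12.61 under the field, in CL1-0. In CL1-5 GSTM4 was at 10.32, 9.77 and 9.63, and 9.73, 9.72 and 9.94, which is 5.82-fold lower (−2.54 ± 0.22, SE; limma adjusted p = 3.58e-06). A further GSTM4 probe set differed by −0.86. GSTM3 of the same family differed by −1.05 ± 0.15 (SE; limma adjusted p = 1.73e-04). The GSTM genes are close copies, so their probe sets may share signal. EPHX1, the microsomal epoxide hydrolase, ranged from 10.89 to 11.76 (median 11.37) in CL1-0 and from 8.37 to 9.65 (median 8.85) in CL1-5 (−2.43 ± 0.22, SE; limma adjusted p = 6.53e-06). UGDH, which makes the sugar donor for glucuronidation, was low on replicate 1 of both lines. It was at 10.66, 12.05 and 11.64, and 10.67, 12.30 and 12.23 under the field, in CL1-0, and at 9.22, 10.63 and 10.53, and 8.53, 10.31 and 10.32, in CL1-5. Within each replicate number UGDH was lower in CL1-5, and the difference was −1.67 ± 0.43 (SE; limma adjusted p = 0.00991).

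Of the 3 targets outside these classes, all were lower, and in CL1-5 both CYP4F11 and OSGIN1 reached the low range of the arrays. CYP4F11, a fatty acid hydroxylase, was at 8.85, 8.03 and 8.66, and 8.46, 7.94 and 8.01 under the field, in CL1-0. In CL1-5 CYP4F11 was at 1.52, 1.61 and 1.07, and 5.19, 0.11 and 0.10, all below the array median. CYP4F11 thus passed the filter on low signals only through CL1-0, where it is high, and its p-value is no independent support. The drop was at least 4.83-fold when values below the array median were raised to it (limma adjusted p = 4.72e-05 on the values as deposited, where the difference was −6.72 ± 0.79, SE, and −7.57 without replicate 1 of CL1-5 under the field). OSGIN1, an oxidative stress-induced growth inhibitor, ranged from 8.05 to 9.13 (median 8.43) in CL1-0 and from 3.74 to 7.20 (median 5.39) in CL1-5, where 4 arrays were below the median. It was at least 4.96-fold lower (limma adjusted p = 8.78e-05 for −3.11 ± 0.40, SE). PIR, pirin, an iron-binding nuclear protein, was at 12.65, 12.46 and 12.51, and 12.55, 12.46 and 12.53 under the field, in CL1-0. PIR stood at 10.30, 10.50 and 10.63, and 10.14, 10.32 and 10.15, in CL1-5. This drop of −2.18 ± 0.12 (SE; limma adjusted p = 8.82e-08) had little spread in either line. PIR carries the ARE core that overlaps AP-1 in the sequences above.

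Heme oxygenase and ferritin light chain, the measured genes of heme and iron, went apart. HMOX1, which breaks down heme, was at 13.24, 13.09 and 12.64, and 13.04, 12.74 and 13.04 under the field, in CL1-0. The CL1-5 arrays were at 10.94, 11.02 and 11.09, and 10.86, 10.97 and 10.99. HMOX1 was thus 3.97-fold lower without overlap (−1.99 ± 0.13, SE; limma adjusted p = 4.17e-07). FTL, an iron storage subunit, was at 15.18 ± 0.19 (SD, n = 6) and 15.21 ± 0.47, with 16.06 on replicate 1 of CL1-5 under the field (0.03 ± 0.19, SE; limma adjusted p = 0.93). The sign of the FTL difference flips with quantile normalization (−0.03) and with arrays centred on their median (−0.01).

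Of the 3 efflux pumps, which export glutathione conjugates and drugs, 2 were lower. ABCC2 ranged from 9.44 to 11.24 (median 10.34) in CL1-0 and from 7.10 to 8.95 (median 7.56) in CL1-5, with a difference of −2.52 ± 0.40 (SE; limma adjusted p = 4.69e-04). ABCC1 ranged from 11.58 to 11.89 in CL1-0 and from 10.26 to 11.88 in CL1-5, its 2 highest CL1-5 values being replicate 1 (11.40 and 11.88). The ABCC1 difference of −0.80 ± 0.25 (SE; limma adjusted p = 0.0257) did not pass as the mean of all its probe sets (0.106). It also did not pass, at 0.0574 to 0.0636, without replicate 3 of CL1-0 without the field, or replicate 2 or 3 of CL1-5 in either field setting. ABCC3 was below the array median on all 6 arrays of CL1-0 (2.43 to 5.27) and on 2 of CL1-5 (3.92 to 7.48). It thus passed the filter on low signals only through CL1-5. Its difference of 1.92 ± 0.73 (SE) had a limma adjusted p of 0.0655, and of 0.043 with the replicate block. It passed also without replicate 3 of CL1-5 without the field (0.0322), replicate 3 of CL1-0 under the field (0.0399) or replicate 2 of CL1-5 under the field (0.012). On the probe set used, with its CL1-0 values raised to the array median, the mean of ABCC3 was 1.12-fold higher in CL1-5, array spread left out. Another ABCC3 probe set past the filter had a wider gap, at 2.66 in CL1-0 and 7.71 in CL1-5. It was above the array median on 6 arrays. Its log2 difference was 5.06, and 1.7 once signals under that median were set to it. A further one past the filter differed by 1.72, and those not past it by 1.12 and −0.18.

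Other probe sets of the members mostly told the same direction. The members have 78 probe sets with that single symbol, and 29 beyond those used passed the filter, in 20 genes. Of these 29, 27 had the sign of the one used. The exceptions were in PGD, where a probe set near the array median differed by 0.80, and in FTL. GCLC had 1 further probe set at −1.92 and another at −1.27, AKR1C1 had 1 at −2.22 and another, under the array median on most arrays, at −0.60, and AKR1C2 had 1 at −2.67.

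**Figure D2:**
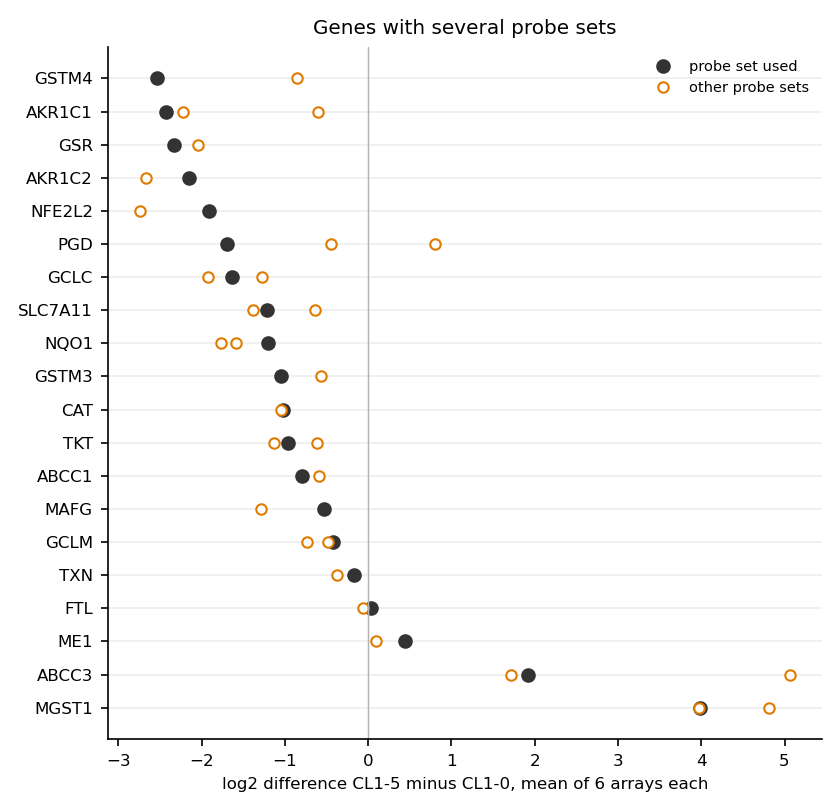
Log2 difference CL1-5 minus CL1-0 over both field settings (x axis) for the 20 genes (rows) with more than 1 probe set past the filter, the probe set used filled and the others open. Of 29 further probe sets 27 lie on the same side of 0 as the one used, and those of PGD at 0.80 and of FTL do not.

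The lines were also compared within each field setting. These comparisons share no arrays, but 1 estimate of the spread from all 4 groups serves both. Without the field, 21 members were lower in CL1-5 (8.93% of all genes) and 1 was higher (9.03% of all genes), with a median of −1.14 against −0.03 over all genes. Under the field, 20 were lower (9.63% of all genes) and 1 was higher (9.81% of all genes), with a median of −0.96 against −0.08. Of the lower genes 19 were called in both, which is 90.5% of the first list and 95% of the second. The same overlap was not counted over all genes, so it cannot be read as particular to the members. PRDX1 and SRXN1 passed only without the field (limma adjusted p = 0.034 and 0.0482, against 0.398 and 0.0895 under it), and UGDH only under it (0.0352 against 0.166). These differences between settings did not pass a test of their own, as the field results show. TXNRD1, TKT, ABCC1 and AKR1B10 passed only where both settings were joined. With the replicate block 27 members were lower without the field (18.8% of all genes) and 26 under it (20.8% of all genes), and most of these splits ended. SRXN1 then passed under the field (limma adjusted p = 0.000161) and UGDH without it (4.46e-05). TKT (0.00104 and 0.000437), AKR1B10 (0.0416 and 0.0437) and KEAP1 (0.00288 and 0.00149) passed with the block in both settings. ABCC1 (0.00956) and MAFG (0.00738) passed with it only without the field (0.0605 and 0.289 under it), and TXNRD1 (0.0243) and GCLM (0.0392) only under the field (0.0511 and 0.832 without it). In the joined comparison the block gave 28 lower (27.1% of all genes) and 3 higher, the additions being KEAP1 and MAFG, and ME1 and ABCC3. It called 50.4% of all genes in either direction. Fitted on only the groups compared and without the block, 20 members were lower without the field (6.44% of all genes). Under the field 17 were lower in such a fit (7.13% of all genes). SRXN1 then lost its call without the field, and TALDO1, CBR1 and UGDH lost theirs under it.

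**Figure D3:**
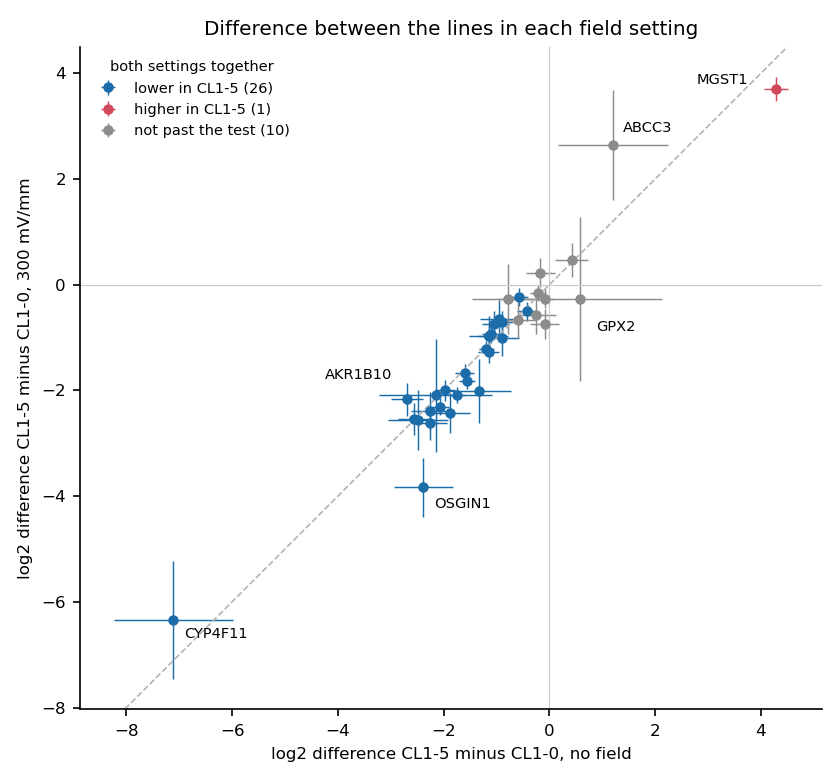
Log2 difference CL1-5 minus CL1-0 without the field (x axis) and under 300 mV/mm (y axis) for the 37 measured members, with SE bars, coloured by the call over both settings, and a dashed line where the 2 are equal. Most members lie near that line, with MGST1 at 4.29 and 3.70 at the upper right and CYP4F11 at −7.11 and −6.34 at the lower left.

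Array by array, the gap was present in each replicate number. The median member difference was −1.09, −1.13 and −1.19 in replicates 1, 2 and 3 without the field and −0.78, −1.23 and −1.03 under it, while the median of all genes lay between −0.08 and −0.02. Of the 37 members, 27 were lower in CL1-5 in all 6 such differences, as were 23.8% of all genes. MGST1 was lower in 0 of 6, and ABCC3 and ME1 in 1 of 6. On the 8 arrays with spike-in signal alone, 29 members were lower (24.5% of all genes), SOD1, KEAP1 and GPX2 among them.

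**Figure D4:**
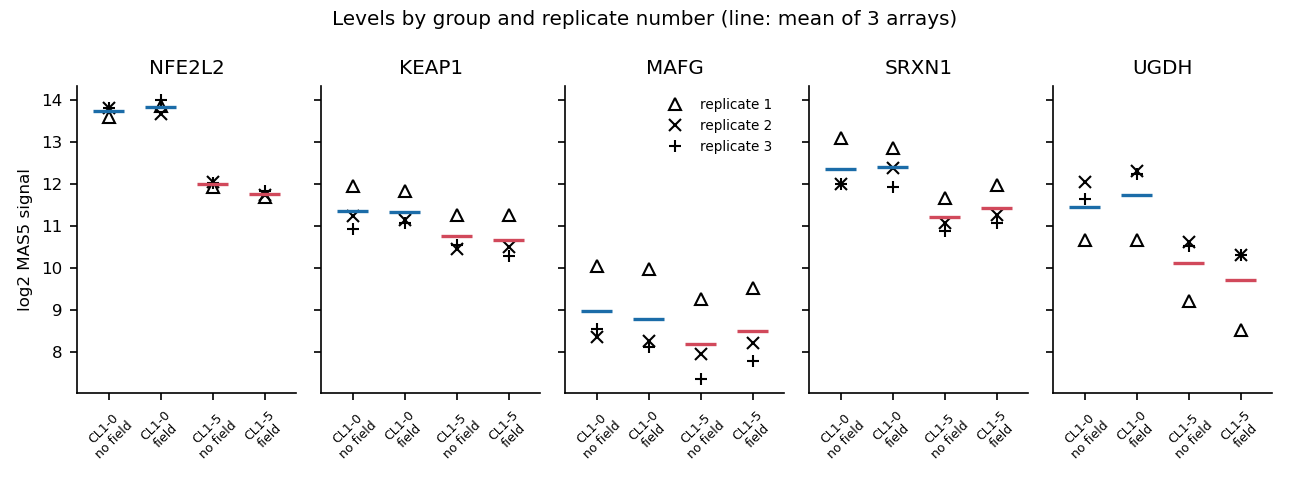
Log2 signal (y axis) of NFE2L2, KEAP1, MAFG, SRXN1 and UGDH in the 4 groups, with a symbol for each replicate number and a line at the mean of 3 arrays. Replicate 1 is the highest array of every group for KEAP1, MAFG and SRXN1 and the lowest for UGDH, while CL1-5 lies below CL1-0 within each number for all 5 genes.

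The field of 300 mV/mm for 2 h did not move any member past the test in either line. In CL1-0, CL1-5 and the difference of the field response between them, limma called 0 of 37 members and 0% of all genes, with adjusted p of 1 for every member. At an unadjusted p under 0.05 there were 1, 3 and 0 members, and 133, 258 and 150 of all 13882 genes. The replicate block called 0 members too, with lowest adjusted p of 1, 0.681 and 0.9. The median field change of the members was −0.02 in CL1-0 (0.01 over all genes) and −0.05 in CL1-5 (−0.01 over all genes).

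The core readouts of the pathway gave field changes near 0 with intervals that leave room for modest effects. NQO1 differed by −0.03 ± 0.14 (SE; 95% interval −0.34 to 0.27) in CL1-0 and by −0.05 ± 0.14 (−0.36 to 0.26) in CL1-5. HMOX1, which responds quickly to oxidants in many cell types, differed by −0.05 ± 0.19 and −0.08 ± 0.19 (SE). NFE2L2 differed by 0.10 ± 0.15 and −0.24 ± 0.15 (SE). Among 32 members above the array median on all 12 arrays, changes ran from −0.19 to 0.58 in CL1-0 and from −0.72 to 0.81 in CL1-5. The 95% interval lay within 1 log2 unit of 0 for 26 of them in CL1-0 and for 22 in CL1-5, and the widest bounds were −1.66 and 1.6, and −1.72 and 1.79.

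**Figure D5:**
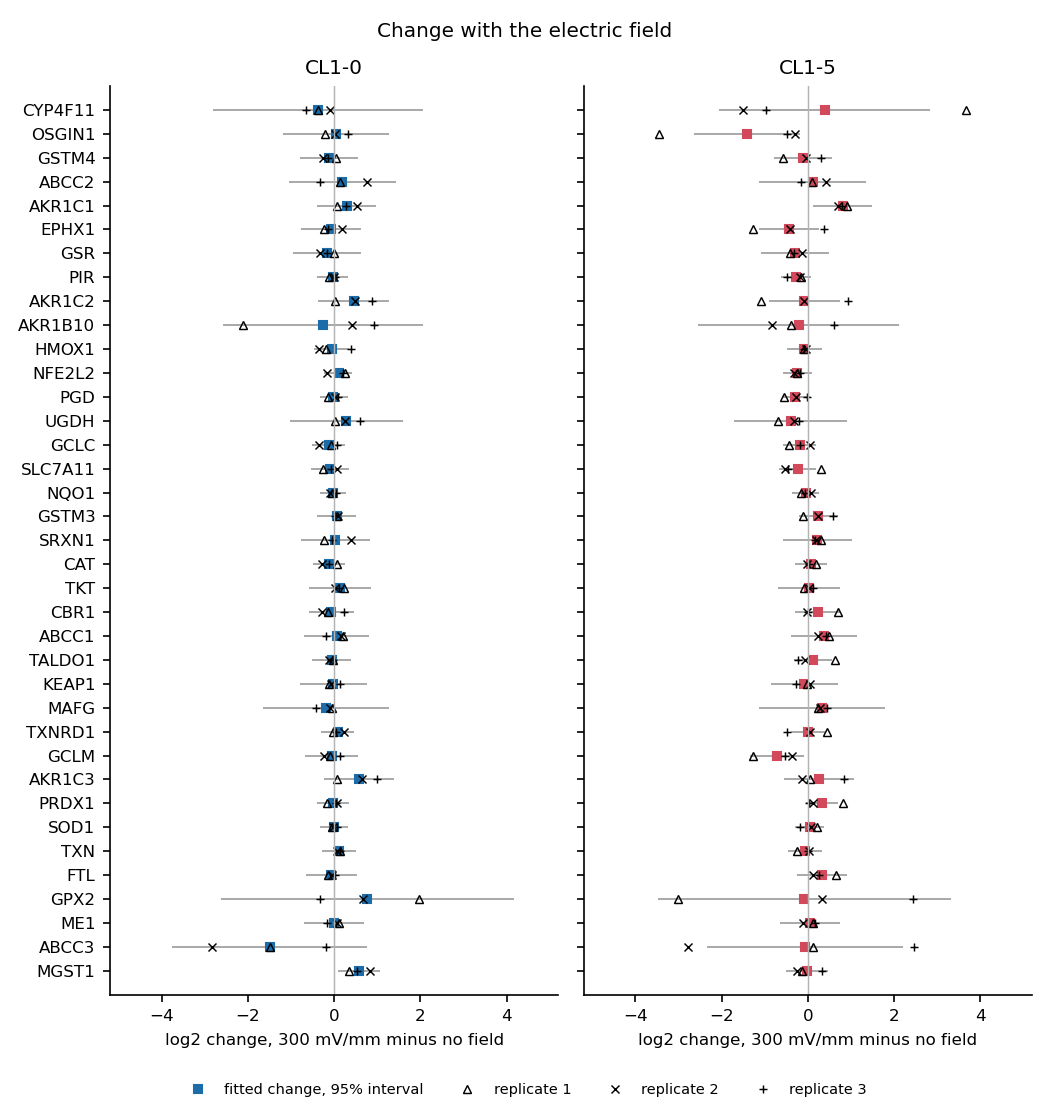
Log2 change with the field (x axis, 300 mV/mm minus no field) of the 37 measured members (rows) in CL1-0 and CL1-5, as fitted squares with 95% intervals and as symbols for the difference within each replicate number. No member passed the adjusted test, and the intervals are widest for members near or under the array median, such as GPX2, ABCC3 and CYP4F11.

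The members with the smallest p for the field in CL1-0 were MGST1, AKR1C3 and ABCC3. MGST1 was at 7.0, 7.0 and 7.06 without the field and 7.35, 7.83 and 7.59 under it. The change was 0.57 ± 0.23 (SE; unadjusted p = 0.0266, adjusted p = 1). On the probe set used, MGST1 was higher under the field in 3 of 3 replicate numbers, and the groups did not overlap. Members here were picked for a small p on the same arrays, so a lack of overlap is no further support. How many of all genes did not overlap between the field settings was not counted. Further MGST1 probe sets past the filter changed by 0.74 and −0.04 in CL1-0. AKR1C3 changed by 0.07, 0.65 and 1.0 in replicates 1, 2 and 3 (0.58 ± 0.37, SE; unadjusted p = 0.148, adjusted p = 1). ABCC3 was under the array median throughout in CL1-0, and its −1.5 ± 1.04 (SE; unadjusted p = 0.174, adjusted p = 1) became 0.06 with low values raised to that median. In CL1-5 they were AKR1C1, GCLM and OSGIN1. AKR1C1 differed by 0.92, 0.70 and 0.80 in the replicate numbers (0.81 ± 0.31, SE; unadjusted p = 0.0235, adjusted p = 1), and by 0.07, 0.54 and 0.27 in CL1-0. Further AKR1C1 probe sets past the filter changed by 0.45 and 0.55 in CL1-5, the latter under the array median on most arrays. GCLM differed by −1.27, −0.37 and −0.53 (−0.72 ± 0.28, SE; unadjusted p = 0.0261, adjusted p = 1), with −0.88 and −1.02 in 2 further probe sets. The 3 GCLM signals under the field in CL1-5, 11.17, 12.14 and 12.20, were all below the 3 without it, 12.44, 12.51 and 12.73. GCLM was picked for a small p as well, so this is no further support. OSGIN1 differed by −3.45, −0.30 and −0.48 (−1.41 ± 0.56, SE; unadjusted p = 0.0272, adjusted p = 1), most of it from replicate 1 and near or under the array median.

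Genes around the pathway were counted from 3 further lists in the comparison of the lines over both settings. These lists too were chosen with earlier results of these data known. Among all genes tested 17% were lower and 15.3% higher, with a median of −0.06. Of 14 tested NRF2 regulators 4 were lower and 1 was higher, with a median of −0.12. BACH1, the repressor that competes with NRF2 at AREs, was higher in CL1-5 (1.12 ± 0.18, SE; limma adjusted p = 4.32e-04), though the mean of its 3 probe sets did not pass (0.284). Its relative BACH2 was at 8.25 ± 0.22 (SD, n = 6) in CL1-0 and below the array median on all 6 CL1-5 arrays, at least 4.59-fold lower (limma adjusted p = 1.57e-06). BACH2 thus passed the filter on low signals only through CL1-0. PGAM5, SQSTM1 and DPP3, which bind KEAP1, differed by −0.62 ± 0.19, −0.53 ± 0.19 and −0.36 ± 0.12 (SE; limma adjusted p = 0.0279, 0.0487 and 0.0437). None of these 3 calls held throughout when 1 array was left out, the highest adjusted p being 0.0735, 0.118 and 0.103.

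Of 39 tested glutathione and thioredoxin genes outside the members, 15 were lower (17% of all genes) and 8 higher (15.3% of all genes), with a median of −0.17. These 8 are a share near that of all genes. PRDX2, a peroxiredoxin, was at 12.56 ± 0.68 (SD, n = 6) in CL1-0 and 3.48 ± 0.94 in CL1-5, at least 91.3-fold lower when values below the array median were raised to it (limma adjusted p = 4.03e-08). The PRDX2 probe set used was below the median on all CL1-5 arrays, so it passed the filter on low signals only through CL1-0. A further PRDX2 probe set differed by −4.25, and another, near the array median, by 0.10. GSTZ1, GSTM1 and GSTO2, glutathione transferases, were lower by −1.90, −1.81 and −1.74. The higher genes were led by GLRX, glutaredoxin (4.17 ± 0.39, SE), MGST2, a relative of MGST1 with 2 CL1-0 arrays below the median (3.33 ± 0.25), GPX1, a glutathione peroxidase (2.78 ± 0.24), and TXNIP, an inhibitor of thioredoxin (2.39 ± 0.22). Of 27 tested further NRF2 targets 10 were lower (17% of all genes) and 2 higher (15.3% of all genes), with a median of −0.62. CES1, a carboxylesterase, was below the array median on 2 arrays of CL1-5, and with these raised to it was at least 18.5-fold lower (limma adjusted p = 4.33e-05). As deposited it differed by −4.78 ± 0.56 (SE), and by −4.19 without replicate 2 of CL1-5 without the field. BLVRB, a biliverdin reductase, ABCG2, a drug efflux pump, and SLC48A1, a heme transporter, differed by −1.66 ± 0.17, −1.61 ± 0.35 and −1.60 ± 0.21, with 1 CL1-5 array below the median for ABCG2. HIPK2, a protein kinase, and SLC6A6, the taurine transporter, were higher, by 1.78 ± 0.27 and 0.80 ± 0.18, the latter not passing as the mean of its probe sets (limma adjusted p = 0.0735). The field called none of the genes on these lists in either line, with limma adjusted p of 1 throughout.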

How the data were processed

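The deposited values are linear array intensities made with MAS5, per the submitters' processing notes. Neither its version nor any filter or detection call is given in the sources used here. The 2% trimmed mean was 500.07 to 500.08 on all 12 arrays, so no further scaling was applied. Values under 1 were set to 1 and put on the log2 scale. Each gene was read from 1 probe set with that single symbol (41097 of 54675), the one with the highest mean, above the median of its own array on at least 3 arrays. All 4 groups entered 1 fit in limma 3.58.1 (lmFit, eBayes with trend) under R 4.3.3 with data.table (version 1.17.8), for 6 comparisons, adjusted by Benjamini-Hochberg at 0.05. The number of arrays limits the precision. Folds printed as at least a value raise values below the array median to it in the lower line only and leave out array spread.

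All members are accounted for, those past the test in full. For the field the 3 with the smallest p in each line are named, and of further lists up to 4 past the test in each direction. Members and lists were chosen with earlier results of these data known. Same-numbered arrays correlated at 0.187 to 0.609 over 18 pairs after group means were removed, against −0.505 to 0.284 over 36 others. All negative values involved replicate 1. Replicate 2 against replicate 3 gave 0.137 to 0.284, near the 0.187 to 0.423 of same-numbered pairs of these replicates. The replicate block thus mainly sets replicate 1 apart, with little pairing by number between replicates 2 and 3. The labels state no pairing, and the spike-in separates replicate 1 as well. For replicate 1, pairing and batch cannot be told apart. The steps were tested on simulated data with independent noise and a shift placed in genes of low spread. Such data lack the deviation that the replicate 1 arrays share, so they do not test the fit under it. AKR1B1 and FTH1 were not analysed here.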

Additional observations from a re-analysis of the deposited data

How the results depend on the processing

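Of the 27 members past the test in the comparison of the lines, 21 kept call and direction under every alternative that gave a value. The exceptions were TXNRD1, PGD, CAT and ABCC1 (mean of the probe sets), and PRDX1 (no filter, adjusted p = 0.0549, and eBayes without trend, 0.0656), and AKR1B10 (arrays centred on their median, 0.0505, no filter, 0.0628, and no trend, 0.0654). PRDX1, ABCC1 and AKR1B10 also lost their call without single arrays, as given with their values. The causes were not tested. The count of lower members was 22 to 29 over the alternatives and 23 to 26 leaving out 1 array (without the field 17 to 28 and 19 to 24, under it 16 to 27 and 17 to 24). Of all genes, 11% to 27.1% were lower over the alternatives and 14.4% to 17% leaving out 1 array. Without the field these shares were 5.49% to 18.8% and 5.49% to 10.5%, and under it 6.03% to 20.8% and 5.83% to 10.6%. The replicate block and the spike-in batch as a block each raised the members higher in CL1-5 over both settings from 1 to 3, adding ME1 and ABCC3. These fits called 50.4% and 49.8% of all genes in either direction. Leaving out 1 array gave 1 to 2 members higher, over both settings and under the field, ABCC3 being the addition. Of all genes, 28.2% to 32.7% and 13.2% to 20.9% were then called in either direction. The replicate block ended no call of the joined comparison and moved no other count of member calls by over 1.5 times. Field calls stayed at 0 throughout.

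GPX2, which did not pass, turned from 0.16 to −0.07 with a pseudocount, −0.02 with the mean of its probe sets, −0.35 with low values raised and −1.43 on the arrays with spike-in signal, and ran from −0.78 to 0.63 leaving out 1 array. FTL turned from 0.03 to −0.03 (quantile), −0.01 (centred), −0.02 (mean of the probe sets) and −0.12 (arrays with spike-in signal), and ran from −0.14 to 0.13. ABCC3 under the field in CL1-0 turned to 0.06 with low values raised. Using only the groups compared gives no value for comparisons that join all 4 groups. Signal near the array median limits what can be said of GPX2, AKR1B10, ABCC3, OSGIN1 and CYP4F11.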
